A study of Mus musculus with 4 samples.

Results

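The libraries described here are the 2 empty-vector controls of a 4-library RNA sequencing study of mouse C2C12 cells, chosen by their label (pLXSN, the retroviral plasmid without an insert) and not by any measured value. C2C12 is an established myoblast line, here labelled as strain C3H, whose cells stop dividing, fuse into multinucleated myotubes and switch on the contractile apparatus when serum is withdrawn. The cells were grown in DMEM with 10% fetal bovine serum and infected with a retrovirus carrying the empty vector, then selected for 7 days with 1200 µg/ml G418. The surviving cells were kept as a pool, proliferated for 2 days, and at 90% confluency were moved to 2% horse serum for 2 days of differentiation before total RNA was taken. The other 2 libraries are from cells that overexpress the transcription factor C/EBPβ, were handled in the same way, and were not used here. Both control libraries therefore carry a retroviral integration and drug selection, they come from 1 cell line, and the labels do not say whether they are separate infections or separate dishes, so the spread between them may be partly technical.

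Skeletal muscle differentiation is driven by the MyoD family of transcription factors, which bind E-box sequences together with MEF2 factors and activate genes of contraction, excitation and fusion. Developing fibres first use embryonic and perinatal isoforms of the contractile proteins, and adult isoforms replace many of them later. A C2C12 culture in differentiation medium also holds cells that do not fuse, among them undifferentiated cells known as reserve cells that keep features of satellite cells, the stem cells of adult muscle.

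The libraries held 45448661 (replicate 1) and 51537847 (replicate 2) fragments assigned to genes. Levels are given as TPM, which corrects each gene's fragments for its length and scales every library to the same sum, so that genes can be compared with each other, and values are written in the order replicate 1, replicate 2. Of 21734 protein-coding genes, 11505 reached 1 TPM in both libraries and are called expressed, 7854 stayed under 0.1 TPM in both and are called silent, and 6079 of the silent genes had no fragment in either. Muscle markers were read beside the label, from a list written with earlier results of these data known, so they do not test it. Other muscle genes, among them Dmd and Chrne, were low, as given below. Myod1, Myog, Des, Myh3, Acta1, Actc1, Tnnt3, Mymk and Ckm, the 9 genes listed for skeletal muscle, all ranked within the top 387 protein-coding genes, and Myod1 had the lowest rank of them. Mitochondrial genes took 1.89% and 1.65% of fragments.

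The most abundant transcripts of these cells included those of the thin filament, 1 myosin light chain, mitochondrial genes and an imprinted non-coding RNA. H19, the long non-coding RNA of the imprinted Igf2 region (ENSMUSG00000000031.15, GRCm38 chr7:142575529-142578143), stood at 14270 and 15817 TPM. Acta1, skeletal muscle alpha-actin (ENSMUSG00000031972.5, chr8:123891769-123894751), stood at 13305 and 14273 TPM and was the first protein-coding gene in both libraries. Mylpf, the fast skeletal regulatory myosin light chain (chr7:127208890-127214298), stood at 10844 and 12789 TPM. H19 was above Acta1, and Acta1 above Mylpf, in each library taken alone, but the H19 value of replicate 1 lay below the Acta1 value of replicate 2, so H19 and Acta1 differed by no more than the spread. Tnnc1, the slow and cardiac troponin C, stood at 6628 and 7765 TPM and Acta2, smooth muscle alpha-actin, at 6002 and 5922 TPM (rank 8). Among the first 25 genes were also Tnnc2, Actc1, Mybph, Myh3, Tpm2 and Tnnt3 of the sarcomere, Myog, the CDK inhibitor Cdkn1a, and the general genes Lgals1, Fth1, Cd63, Hsp90ab1, Eef2 and Rplp1. The remaining places were held by genes of the mitochondrial chromosome, of which mt-Cytb was the highest at 12548 and 10559 TPM. The reads of mt-Co1, mt-Nd4, Rplp1 and Cd63 are less certain, since over 10% of the 50-base windows of these genes also occur in transcripts of other genes.

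The 59 sarcomere genes of the families and lists examined summed to 7.00% and 7.79% of all TPM. The 10 most abundant genes held 9.90% of TPM in both libraries, and 576 and 555 genes were needed to reach 50%. The curve was thus steep at its head and broad after it, with 90 and 94 protein-coding genes at or over 1000 TPM and 1861 and 1846 at or over 100 TPM.

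**Figure D1:**
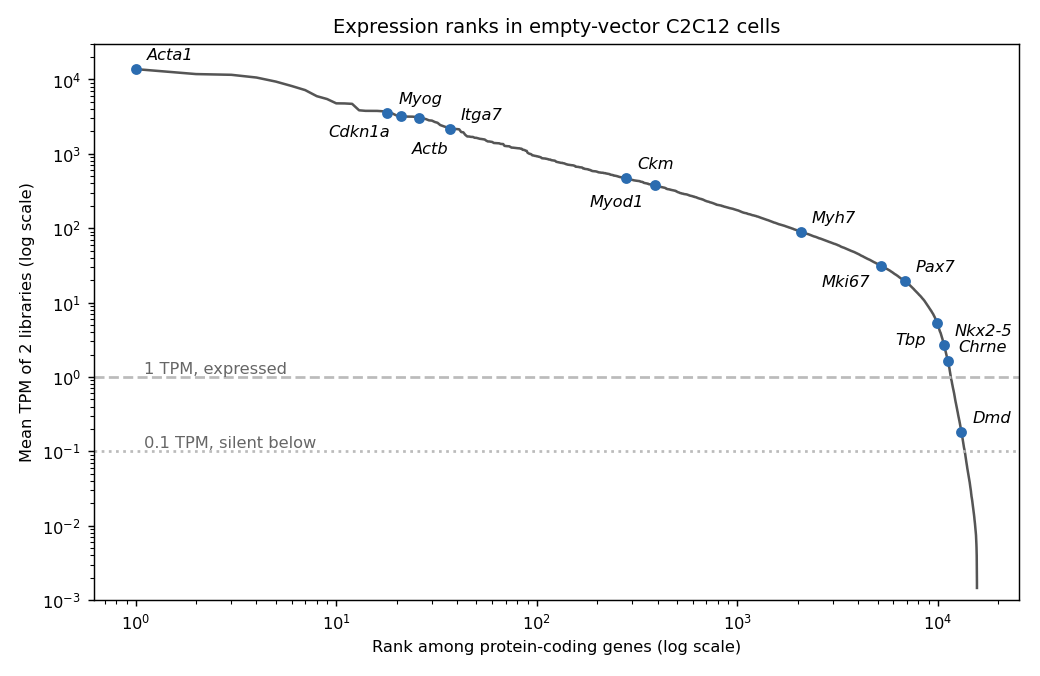
Mean TPM of the 2 libraries (log scale) against rank among protein-coding genes (log scale); the line is all genes with a fragment, the points are 14 genes of the text, and the horizontal lines mark 1 and 0.1 TPM. Acta1, Myog, Cdkn1a and Actb lie at the head of the curve, Pax7 and Mki67 in the middle of the expressed genes, and Dmd below 1 TPM.

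The stretches from 250 bases before to 50 bases after the annotated gene start are shown for 4 of these genes, because they carry the E-box CAGCTG that the MyoD family is known to bind, 2 of them at the head of the ranking and 2 being acetylcholine receptor subunits far apart in it (Chrng at rank 183 and Chrne at rank 11194). The sequences are RefSeq's for build GRCm38.p6, written 5′ to 3′ on the gene's strand with each CAGCTG in capitals. Acta1 lies at chr8:123894726-123895025 on the minus strand, Mylpf at chr7:127211358-127211657 on the plus strand, Chrng at chr1:87205561-87205860 on the plus strand and Chrne at chr11:70619145-70619444 on the minus strand. The Mylpf window begins inside the gene span given above, so its RefSeq start lies downstream of the gene start used for its level.
Acta1: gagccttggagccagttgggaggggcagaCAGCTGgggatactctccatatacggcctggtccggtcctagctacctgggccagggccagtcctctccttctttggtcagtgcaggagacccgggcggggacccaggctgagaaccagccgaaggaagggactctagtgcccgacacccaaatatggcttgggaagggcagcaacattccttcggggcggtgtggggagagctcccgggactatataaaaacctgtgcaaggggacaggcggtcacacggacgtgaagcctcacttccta
Mylpf: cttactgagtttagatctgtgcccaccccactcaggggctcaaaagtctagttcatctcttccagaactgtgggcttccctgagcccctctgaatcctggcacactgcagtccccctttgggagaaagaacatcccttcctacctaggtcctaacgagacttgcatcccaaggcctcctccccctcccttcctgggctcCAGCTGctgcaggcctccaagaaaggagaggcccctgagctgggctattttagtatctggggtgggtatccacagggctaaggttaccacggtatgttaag
Chrng: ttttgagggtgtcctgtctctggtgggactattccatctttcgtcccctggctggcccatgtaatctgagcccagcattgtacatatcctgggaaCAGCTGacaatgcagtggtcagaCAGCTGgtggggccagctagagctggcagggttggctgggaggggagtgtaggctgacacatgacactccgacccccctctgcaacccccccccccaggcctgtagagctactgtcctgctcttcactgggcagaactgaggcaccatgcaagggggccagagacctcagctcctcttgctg
Chrne: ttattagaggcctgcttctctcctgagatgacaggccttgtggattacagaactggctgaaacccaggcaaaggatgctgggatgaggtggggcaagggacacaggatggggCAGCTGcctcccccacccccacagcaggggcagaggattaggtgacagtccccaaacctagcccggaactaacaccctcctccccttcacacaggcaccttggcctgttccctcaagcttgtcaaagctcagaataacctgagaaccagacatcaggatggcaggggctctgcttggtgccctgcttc

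The first base of the motif lay at -221 in Acta1, -51 in Mylpf, -155 and -132 in Chrng, and -138 in Chrne, counted from the RefSeq gene start. CAGCTG, a palindrome that reads the same on both strands, occurred in 16.3% of all 32851 promoter windows of this length. It occurred in 28 of 82 windows (34.1%) of the muscle genes in the families and lists, 71 of whose 93 genes had an entry, and in 23 of 55 windows (41.8%) of those at or over 100 TPM. It occurred in 2 of 26 windows of mitosis genes and in 3 of 25 windows of DNA replication genes. The looser E-box CANNTG, which includes CAGCTG, was in 72.3% of all windows and 79.3% of the muscle windows. The MEF2 box and the CArG box of serum response factor were each rarer, at 13.4% and 8.54% of muscle windows against 3.19% and 1.63% of all windows. In the muscle windows at or over 100 TPM, CANNTG was in 80.0%, the MEF2 box in 10.9% and the CArG box in 9.09%. Muscle genes under 1 TPM had only 5 windows, 1 of them with CAGCTG, too few to relate the motif to level. A match is a string of letters and not a measured binding site, and Chrne holds the motif at a level of under 2 TPM in both libraries.

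Among the sarcomeric myosin heavy chains, the motor proteins of the thick filament, the embryonic isoform was dominant. Myh3, embryonic myosin (chr11:67078300-67102291), stood at 3572 and 3986 TPM and made up 86.6% ± 0.31 (SD, n = 2) of the family's TPM. Myh1, the adult fast IIx isoform, was next at 289 and 298 TPM, 6.74% ± 0.35. Perinatal Myh8 (90.0 and 111 TPM) and slow Myh7 (89.1 and 91.1 TPM) followed; Myh8 was the higher in each library, but the value of Myh8 in replicate 1 lay below that of Myh7 in replicate 2, so the difference was within the spread. Fast IIb Myh4 stood at 34.7 and 41.7 TPM, and the cardiac alpha isoform Myh6 (23.9 and 26.5 TPM) could not be separated from Myh7b (24.9 and 25.2 TPM). Fast IIa Myh2 was the lowest of the expressed members at 13.2 ± 0.23 TPM (SD, n = 2). Extraocular Myh13 stayed at 0.474 and 0.627 TPM, and Myh15 had no fragment in replicate 1 and a level of 0.0100 TPM in replicate 2. Myh1, Myh2, Myh4, Myh6, Myh7 and Myh8 share over 10% of their 50-base windows with other genes, so reads may have been lost or exchanged among them, while Myh3 shares 4.76%. The non-muscle myosin Myh9 stood at 450 and 419 TPM, and smooth muscle Myh11 at 0.0552 and 0.0574 TPM.

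The light chains divided differently. The essential light chains, which stabilise the myosin neck, were led by 3 genes within the spread between the libraries: Myl6b at 1566 and 1724 TPM, Myl6 at 1562 and 1669 TPM, and Myl1, the adult fast isoform, at 1490 and 1696 TPM. This near-equality rests on the gene length, because Myl6 fell to a mean of 294 TPM and Myl1 reached 2537 TPM when the longest annotated transcript was used as the length, and Myl1 shares over 10% of its windows with other genes. Myl4, the embryonic and atrial isoform, was lower in both libraries at 791 and 941 TPM, and Myl3, the slow and ventricular isoform, was at 0.359 and 0.248 TPM. Among regulatory light chains Mylpf held 88.9% ± 0.49 (SD, n = 2), whereas the slow and ventricular Myl2 stood at 10.6 and 11.5 TPM and the atrial Myl7 had no fragment in replicate 1.

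The thin filament mixed slow, cardiac and fast isoforms. In troponin C, the calcium sensor, Tnnc1 exceeded the fast isoform Tnnc2 by 1.51-fold ± 0.0073 (SD, n = 2), with Tnnc2 at 4415 and 5137 TPM. In troponin I, the inhibitory subunit, slow Tnni1 (1286 and 1426 TPM) and fast Tnni2 (1052 and 1293 TPM) overlapped between the libraries although Tnni1 was higher within each, by 1.16-fold ± 0.084 (SD, n = 2), and cardiac Tnni3 stood at 3.84 and 3.51 TPM. In troponin T, the tropomyosin-binding subunit, fast Tnnt3 led with 3039 and 3515 TPM, above cardiac Tnnt2 (831 and 977 TPM) and slow Tnnt1 (715 and 818 TPM). Tpm2 (beta-tropomyosin) held 71.2% of the tropomyosin TPM. Among actins, Acta1 held 49.5% ± 1.0 (SD, n = 2), Acta2 21.4% ± 0.82 and the cardiac isoform Actc1 17.1% ± 0.070. With the longest transcript as the length the libraries of the last 2 overlapped, at 4368 and 4303 TPM for Acta2 and 4272 and 4418 TPM for Actc1. Cytoplasmic Actb stood at 2995 and 3099 TPM, and Actg1, which shares over 10% of its windows with other genes, at 221 and 187 TPM.

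**Figure D2:**
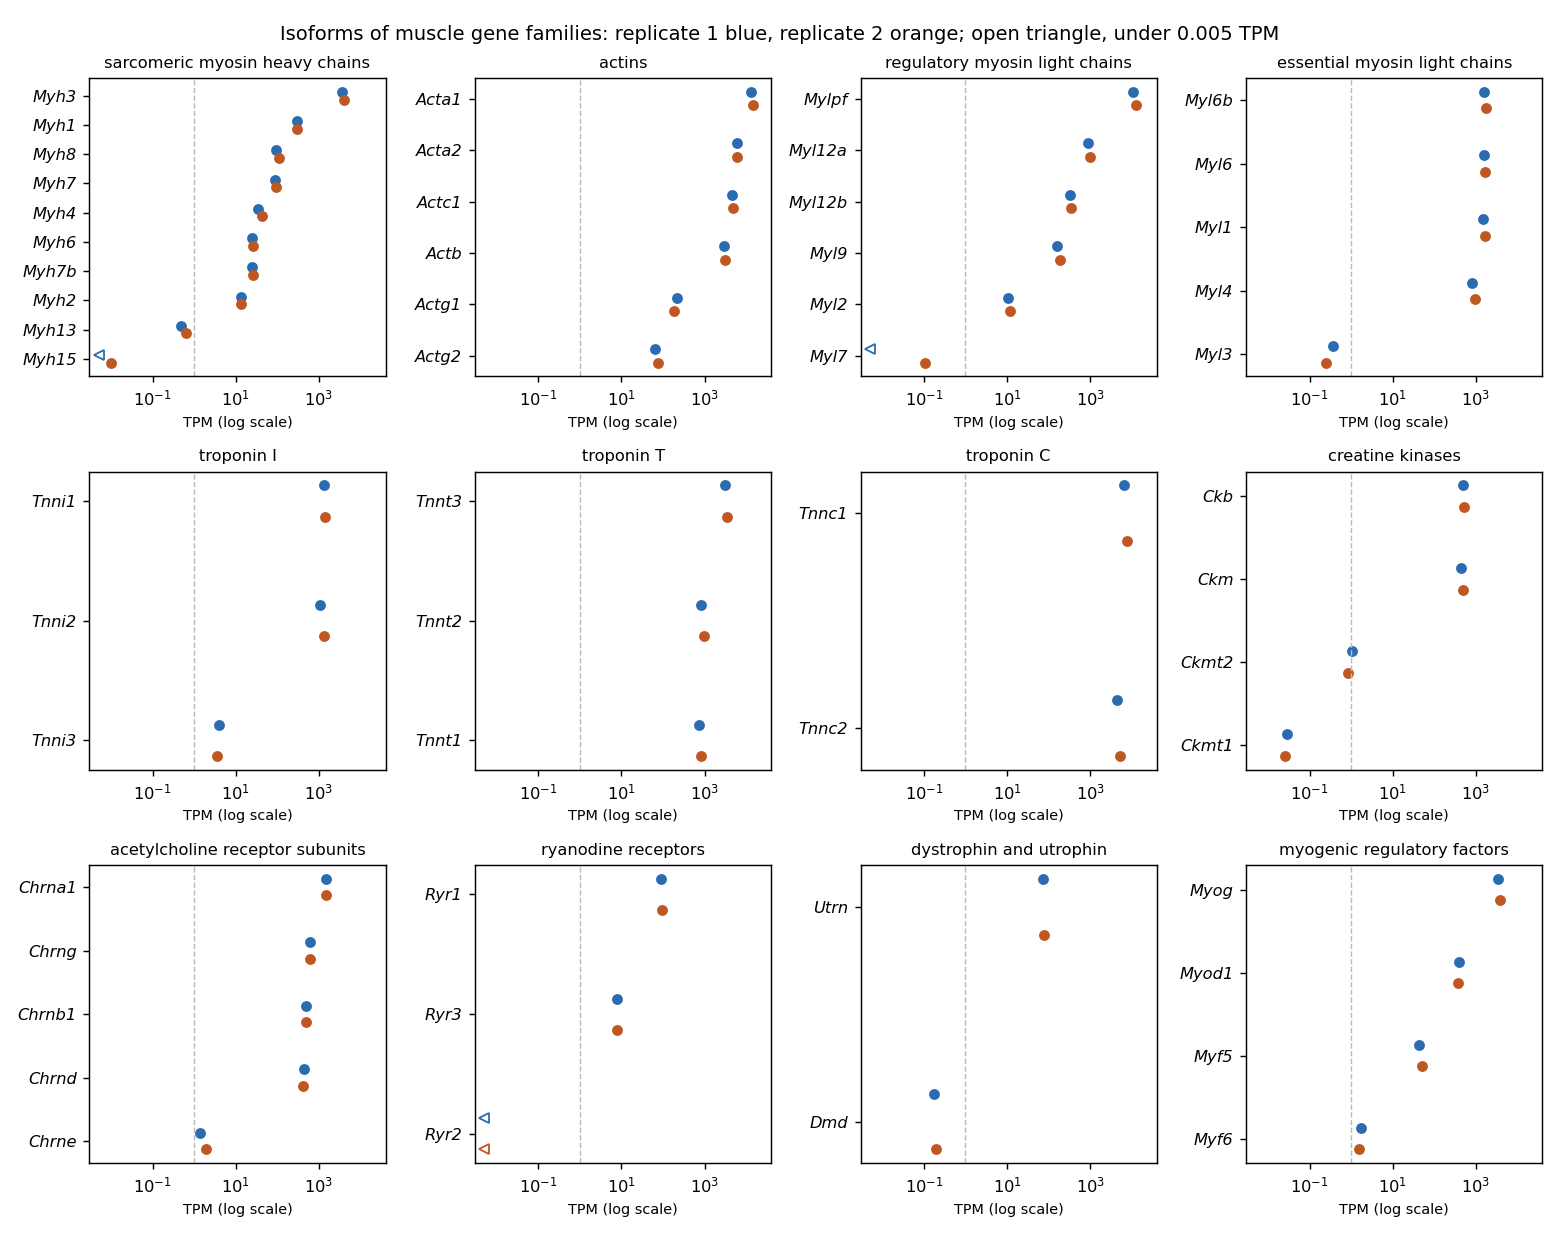
TPM (log scale) of every member of 12 gene families, 1 point for each library; members are in falling order of their mean and the dashed line marks 1 TPM. Myh3, Mylpf, Chrna1, Ryr1, Utrn and Myog lie at the head of their families, while Tnni1 and Tnni2 and the 3 leading essential light chains overlap, and Dmd, Chrne and Ryr2 lie at the foot.

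At the Z-disc and M-band, 24 of 26 genes were expressed, against 52.9% of all protein-coding genes. The list median was 129 and 132 TPM. Des, the muscle intermediate filament, stood at 2649 and 2583 TPM, Cryab, a small heat shock protein of the Z-disc, at 941. and 1053 TPM, and Klhl41, a sarcomere assembly factor, at 666 and 726 TPM. Actn3, the fast-fibre alpha-actinin, exceeded Actn2, the isoform of all striated muscle, by 8.77-fold and 8.71-fold. Mybph, a myosin-binding protein, held 99.4% of its family at 3676 and 3882 TPM, whereas the slow, fast and cardiac binding protein C genes Mybpc1, Mybpc2 and Mybpc3 stood at 17.5 TPM or less in both libraries. Myot, myotilin, was under 1 TPM in both libraries at 0.829 and 0.747 TPM, and Myoz3, a calsarcin, had 1 fragment in replicate 1 and none in replicate 2.

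For the machinery of excitation and calcium release, the skeletal isoforms were present. The cardiac Ryr2 and Cacna1c were absent or nearly so, whereas Casq2 of cardiac and slow muscle was abundant. Cacna1s, the voltage sensor of skeletal muscle, stood at 163 and 148 TPM, and the neuronal and cardiac Cacna1d and Cacna1c were under 0.03 TPM. Ryr1, the skeletal calcium release channel, stood at 88.1 and 95.8 TPM and Ryr3 at 7.95 and 7.84 TPM. The cardiac Ryr2 had no fragment in either library, which allows at most 0.0130 and 0.0113 TPM at a limit of 3 fragments per library (counting error only). Casq2, the calsequestrin of cardiac and slow muscle, was in turn 32.1-fold and 32.7-fold above the fast isoform Casq1, at 1638 and 1743 TPM. Atp2a1, the fast-muscle calcium pump, stood at 1268 and 1157 TPM, above Atp2a2 at 591 and 508 TPM.

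Transcripts of the muscle acetylcholine receptor held the fetal and hardly any of the adult subunit. Chrna1, the ligand-binding alpha subunit, stood at 1478 and 1455 TPM and Chrng, the fetal gamma subunit, at 616 and 605 TPM. Chrne, the epsilon subunit that replaces gamma at the adult synapse, stood at 1.34 and 1.95 TPM on 31 and 52 fragments. Chrng was thus 458-fold and 310-fold above Chrne, while Chrng itself was nearly level between the libraries. Of 11 neuromuscular synapse genes, 10 were expressed in both libraries, against 52.9% of all protein-coding genes. Rapsn, which clusters the receptor, stood at 350 and 313 TPM, and Musk, the receptor kinase of the synapse, at 74.7 and 67.0 TPM. Ache, acetylcholinesterase, was at the threshold at 1.13 and 0.975 TPM.

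A second near-absence was dystrophin. Dmd, the large membrane-linking protein lost in Duchenne dystrophy (chrX:82948870-85206141), stood at 0.172 and 0.195 TPM on 56 and 73 fragments, and its autosomal homologue Utrn, utrophin, at 72.3 and 77.2 TPM. Utrn was 419-fold and 397-fold above Dmd. The caveolae genes gave a smaller difference, with Cav1 at 145 and 156 TPM and the muscle isoform Cav3 at 126 and 129 TPM.

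The enzymes of energy supply were muscle isoforms in glycolysis and more general isoforms in respiration. Eno3, muscle enolase, held 85.1% ± 0.56 (SD, n = 2) of enolase TPM, Pgam2 83.8% ± 0.21 of phosphoglycerate mutase, Pfkm 78.6% ± 0.23 of phosphofructokinase and Pygm 89.1% ± 0.57 of glycogen phosphorylase. Their counterparts Eno1 and Pgam1 share over 10% of their windows with other genes, so their own shares may be too low. For cytochrome c oxidase, the widely expressed subunits Cox6a1, Cox7a2 and Cox8a held 85.3%, 96.2% and 82.1% against their muscle and heart forms Cox6a2, Cox7a1 and Cox8b. Creatine kinase lay between these patterns. Brain-type Ckb stood at 500 and 520 TPM and muscle-type Ckm at 452 and 484 TPM, apart in each library by a ratio of 1.11 and 1.07. With the longest annotated transcript as the length this order turned round, since Ckb then had 34.8% of the family. The muscle mitochondrial kinase Ckmt2 was near 1 TPM (1.04 and 0.854 TPM).

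Among the regulators, Myog, myogenin (chr1:134289989-134292548), was the transcription factor at the head of the ranking. It stood at 3422 and 3710 TPM, rank 18, and held 89.3% ± 0.89 (SD, n = 2) of the MyoD family. Myod1 (392 and 364 TPM) was 8.73-fold and 10.2-fold lower than Myog, Myf5, an early myoblast factor, stood at 44.0 and 50.7 TPM, and Myf6, the late factor of the family, at 1.70 and 1.53 TPM on 29 and 30 fragments. Of the MEF2 factors, Mef2d stood at 191 and 180 TPM, Mef2a at 90.0 and 93.9 TPM and Mef2c at 26.4 and 27.1 TPM. Mef2b overlaps another gene on its strand over most of its exons and its low count carries no information.

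Genes of myoblast fusion were high. Mymk, the membrane protein myomaker required for fusion (chr2:27061636-27072179), stood at 2888 and 2976 TPM, rank 28, at 0.964 and 0.960 of the level of Actb. Mymx, myomixer, its partner, stood at 549 and 621 TPM. In the list of 16 fusion genes, 14 were expressed, against 52.9% of all protein-coding genes. The list median was 199 and 190 TPM, and Adgrb3 had no fragment. Adhesion proteins Itgb1 (1215 and 1209 TPM) and Cdh15, M-cadherin (781 and 767 TPM), were the next highest after Mymk.

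The CDK inhibitor Cdkn1a was abundant, the other inhibitors of its family were far lower, and cycling genes were present. Cdkn1a, p21, which inhibits cyclin-dependent kinases on cell cycle exit, stood at 3293 and 3247 TPM, rank 21, and was 46.9-fold and 47.5-fold above Cdkn1b. The D-type cyclins were led by Ccnd3, which is known to rise in differentiating myoblasts, at 210 and 220 TPM, 74.6% ± 0.77 (SD, n = 2). Cdkn2a and Cdkn2b, the INK4 and ARF genes on chromosome 4, had no fragment in either library, which allows at most 0.188 and 0.162 TPM for Cdkn2a and 0.158 and 0.137 TPM for Cdkn2b. Their neighbour Mtap stood at 77.1 and 82.2 TPM, and the next gene on the other side, Dmrta1, had no fragment. Whether the locus is deleted or silent in these cells cannot be told apart from RNA.

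All 28 DNA replication genes and all 28 mitosis genes were expressed in both libraries, against 52.9% of all protein-coding genes. The median replication gene stood at 21.1 and 24.1 TPM, a level exceeded by 30.3% and 28.0% of protein-coding genes, and the median mitosis gene at 20.8 and 28.0 TPM, exceeded by 30.6% and 25.6%. Rrm2, a ribonucleotide reductase subunit, was the highest replication gene at 241 and 266 TPM. Ube2c, a ubiquitin-conjugating enzyme of mitotic exit, was the highest mitosis gene at 87.5 and 128 TPM. Mki67, the proliferation marker, stood at 24.2 and 38.7 TPM, and Cdkn1a was 136-fold and 84.0-fold above it. In bulk RNA, few cells with much of a transcript cannot be told apart from many cells with little of it, so these levels do not give a share of cycling cells.

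Most of the listed markers of reserve and satellite cells were expressed. Of 30 listed genes, 25 were expressed, against 52.9% of all protein-coding genes. The list median was 37.9 and 30.5 TPM, a level exceeded by 21.1% and 24.1% of protein-coding genes. Itga7, a laminin receptor that is used to sort satellite cells and that muscle fibres also carry, led at 2312 and 2067 TPM (rank 37), followed by the surface proteoglycan Sdc4 at 332 and 361 TPM and Megf10 at 196 and 181 TPM. Pax7, the paired-box factor that defines satellite cells, was at 23.7 and 14.8 TPM, Cd34 at 29.3 and 29.7 TPM, and the Notch target Hes1 at 96.4 and 104 TPM. Pax3, Calcr, Twist1 and Chrdl2 had no fragment in either library. The limit for Pax3 was 0.0355 and 0.0308 TPM and for Calcr, a receptor of quiescent satellite cells, 0.0562 and 0.0487 TPM. For Twist1, a shorter gene, the limit was 0.136 and 0.118 TPM, above the level called silent.

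**Figure D3:**
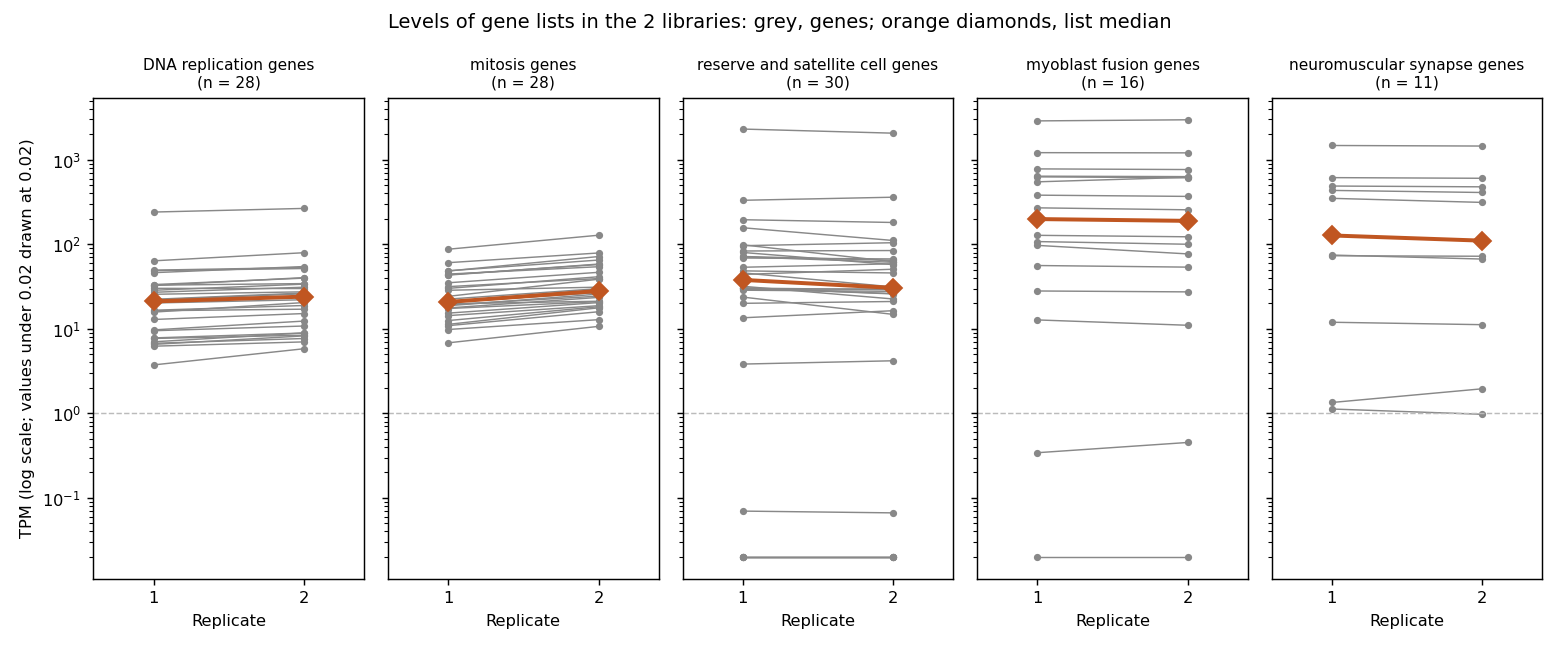
TPM (log scale) of each member of 5 gene lists in replicates 1 and 2, joined by grey lines, with the list median as orange diamonds; values under 0.02 are drawn at 0.02. The mitosis median is 20.8 TPM in replicate 1 and 28.0 TPM in replicate 2, the fusion median is 199 and 190 TPM, the synapse median 127 and 111 TPM, and the reserve list spans genes without a fragment to Itga7.

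Of the 225 genes listed as markers of 23 other tissues and cell types, 131 (58.2%) were silent, against 36.1% of all protein-coding genes, and 87 (38.7%) had no fragment, against 28.0%. Another 46 were expressed in both libraries, against 52.9% of all protein-coding genes, and 48 lay between. In 8 lists with 66 genes no member reached 1 TPM in both libraries: lymphocyte, red blood cell, melanocyte, photoreceptor, intestine, kidney, lung and pluripotent cell. Pou5f1, a pluripotency factor, and Sftpc, a surfactant protein of the lung, were among those without a fragment. The adipocyte genes Adipoq and Fabp4 were silent, as was the endothelial cadherin Cdh5, while the adipogenic regulator Pparg stood at 10.6 and 8.64 TPM.

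Only the fibroblast and smooth muscle lists had a larger share of expressed members than the 52.9% of all protein-coding genes. Expressed were 2 of 5 tendon, 2 of 8 cartilage, 3 of 8 bone, 5 of 12 heart, 5 of 12 neuron and 3 of 10 pancreas genes. The genes named from these lists are thus single members of lists below that share. Scx, a tendon transcription factor, stood at 667 and 713 TPM (rank 154) while the tendon gene Tnmd had 4 and 1 fragments. Sox9, the cartilage regulator, stood at 55.8 and 54.5 TPM with Acan and Matn1 at no fragment and Col2a1 silent. The bone regulator Runx2 stood at 13.8 and 12.6 TPM and the bone matrix gene Dmp1 at 12.2 and 14.8 TPM. Of 12 heart genes, Gata4 (27.2 and 24.6 TPM), Myh6, Nppb, Tnni3 and Nkx2-5 (2.59 and 2.75 TPM) were expressed, whereas Hand2 had no fragment and Tbx5 and Tbx20 were silent. Tubb3, a tubulin commonly used to mark neurons, stood at 66.1 and 71.7 TPM, Stmn2 at 32.3 and 33.7 TPM and Syn1 at 16.7 and 19.7 TPM, whereas Snap25, Syt1 and Rbfox3 had no fragment. Ctrb1, the pancreatic protease precursor chymotrypsinogen, stood at 99.1 and 91.8 TPM on 1187 and 1270 fragments, although Ins1, Gcg and Cel had none. Of the 12 fibroblast genes 9 were expressed, led by Ly6a at 556 and 560 TPM and Dcn, the matrix proteoglycan decorin, at 398 and 312 TPM. Of the 10 smooth muscle genes 7 were expressed, with Acta2 far above the rest and the regulator Myocd silent.

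**Figure D4:**
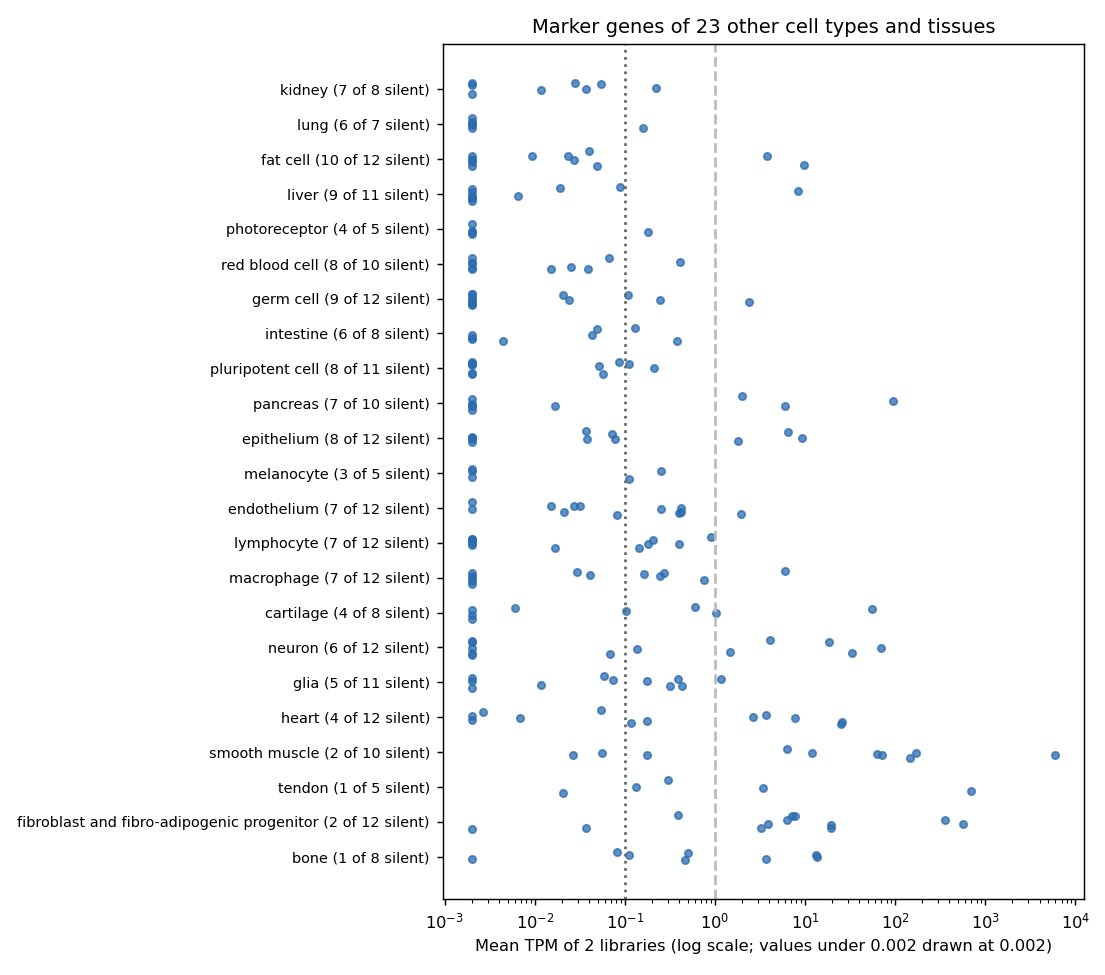
Mean TPM (log scale) of the marker genes of 23 other tissues and cell types, 1 point per gene, lists ordered by the share of silent members; the dotted line marks 0.1 TPM, the dashed line 1 TPM, and values under 0.002 are drawn at 0.002. Kidney and lung genes lie almost wholly left of the dotted line, and the smooth muscle, tendon and fibroblast lists reach furthest right.

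The 2 libraries were compared with each other by the log2 ratio of replicate 2 to replicate 1 on CPM with TMM scaling (fragments relative to the library's effective size), over 11594 genes that code for proteins and averaged 1 TPM or more. This describes 2 libraries of 1 group, and no test was made. The median gene differed by 1.08-fold, the SD of the log2 ratio estimated from its median deviation was 0.155, and counting error alone would give a median SD of 0.0492. Genes from 1 to 10 TPM had an SD of 0.239 and genes from 100 to 1000 TPM one of 0.135, against counting SDs of 0.125 and 0.0225. For well expressed genes the spread between the libraries was therefore several times what their fragment counts alone would give. In all, 212 genes (1.83%) differed by at least 1.5-fold, and 26 by at least 2-fold, of which 24 lay under 10 TPM.

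The largest ratios were in genes of low level. Htr1d, a serotonin receptor, had 31 and 117 fragments, a log2 ratio of 1.76, and its ratio of 3.38 had an exact binomial 95% interval of 2.26 to 5.19 (counting error only). Ptgfr, a prostaglandin receptor, had 331 and 157 fragments and a log2 ratio of -1.24. Isg15, an interferon-induced gene, stood at 7.27 and 14.4 TPM, the highest level among the 10 genes with the largest ratios in favour of replicate 2. The short mitochondrial gene mt-Atp8 had the lowest ratio, -1.70 on 29 and 10 fragments, but overlaps another gene on its strand over 21.1% of its length.

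The mitosis genes differed between the libraries in 1 direction. All 28 were higher in replicate 2, against 54.4% of all genes tested, and 7 of the 28 were at least 1.5-fold higher, against 0.802% of all genes. Their median log2 ratio was 0.46, against 0.02 for all genes. Mki67 had 3327 and 6128 fragments and a log2 ratio of 0.72, and Cenpf, a kinetochore protein, 1438 and 2600 fragments and a log2 ratio of 0.69. The ratio of Mki67 was 1.65 with an interval of 1.58 to 1.72 for counting error. Ccnb1, cyclin B1, had a log2 ratio of 0.70, and shares over 10% of its windows with other genes. The 28 DNA replication genes were also all higher in replicate 2, by a smaller median of 0.24, and 1 of them, the origin licensing gene Cdc6 (3.74 and 5.81 TPM), passed 1.5-fold. Genes of the cell cycle are known to be regulated together and both lists come from the same 2 libraries, so these are not independent observations.

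Some reserve and fibroblast genes were lower in replicate 2. Of 25 reserve genes with a ratio, 11 were higher in replicate 2 and the median log2 ratio was -0.04. At least 1.5-fold lower in replicate 2, against 1.03% of all genes, were 2 of them: Pax7 with 1899 and 1369 fragments and a log2 ratio of -0.63, and the inhibitor of differentiation Id3 with 2411 and 1757 fragments and -0.62. Of 9 fibroblast genes with a ratio, 2 were higher in replicate 2, the median was -0.26, and Lum (8.26 and 4.19 TPM) and Pdgfra (5.05 and 2.70 TPM) had log2 ratios of -0.93 and -0.86. The summed level of the fibroblast list was 1029 and 932 TPM. These 4 genes are named for their ratios, the reserve list as a whole stayed near the median of all genes, and the source of the difference in cycling genes was not tested.

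Many contractile genes were also higher in replicate 2, by less than 1.5-fold. Of all genes tested, 54.4% were higher in replicate 2, and the median log2 ratio was 0.02. The 8 expressed sarcomeric myosin heavy chains were all higher in replicate 2, with a largest log2 ratio of 0.35 and none past 1.5-fold. In the Z-disc list 21 of 24 were higher with a median of 0.12, and the giant genes Ttn, titin (75742 and 120174 fragments), and Neb, nebulin (26540 and 40430 fragments), reached 0.51 and 0.45. Both troponin C genes and all 3 troponin T, 4 essential and 5 regulatory light chain genes with a ratio were higher. Their medians were 0.27, 0.26, 0.21 and 0.19, so those of troponin C and T were as large as that of the replication genes. Of the 3 troponin I genes 2 were higher, with a median of 0.20. Smaller medians were found for actins (5 of 6 higher, 0.10), tropomyosins (3 of 4, 0.15), alpha-actinins (3 of 4, 0.06) and myosin-binding proteins (2 of 3, 0.12). The light chain counts include Myl6, Myl9, Myl12a and Myl12b, which were not counted among the sarcomere genes. The fusion genes had a median of 0.00 and the neuromuscular genes one of -0.04, although Chrne (31 and 52 fragments, log2 ratio 0.59) passed 1.5-fold. Of the 12 widely used reference genes, 11 were higher in replicate 2 with a median of 0.15, and Sdha (log2 ratio 0.01) and Tbp (0.06) lay closest to zero among the higher ones.

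**Figure D5:**
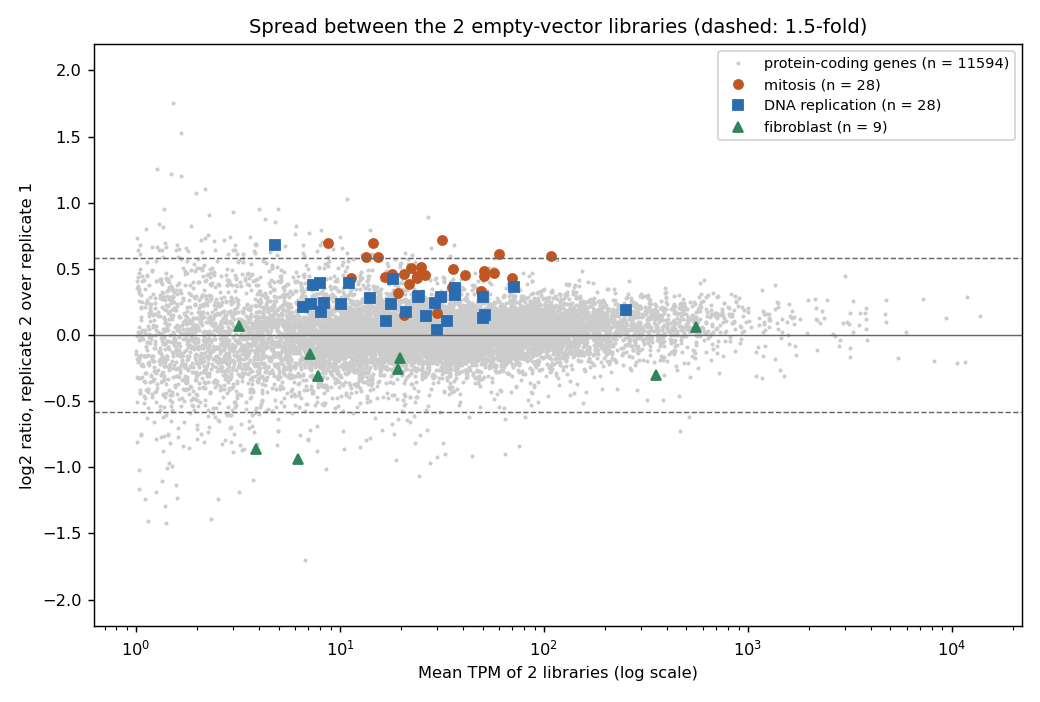
Log2 ratio of replicate 2 to replicate 1 against mean TPM (log scale) for 11594 protein-coding genes (grey), with mitosis (orange circles), DNA replication (blue squares) and fibroblast genes (green triangles) marked; dashed lines are 1.5-fold. All marked mitosis and replication genes lie above zero, and 7 of the 9 fibroblast genes below it.

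The ratio also moved with transcript length. Genes with a longest transcript under 1000 bases had a median log2 ratio of 0.16 and 79.6% of these 486 genes were higher in replicate 2, whereas for 3831 genes from 4000 to 8000 bases the median was -0.02. The 25 genes of at least 16000 bases had a median of 0.21, and 23 of them were higher in replicate 2. Ttn and Neb belong to these 25, as do the cytoskeletal linkers Macf1 (47497 and 74239 fragments, log2 ratio 0.48) and Dst (0.38), while Syne1 (0.06) differed less. With the median of genes of like transcript length taken away, the mitosis median was 0.46 and all 28 genes stayed above zero. The contractile and reference lists were not set against genes of like length.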

How the data were processed

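Each library came as a deposited table of unnormalized fragment counts by gene. These tables were made with featureCounts 1.5.1 (paired fragments, reverse strand, GENCODE M12) per the file headers, and HISAT2 2.0.4 and featureCounts 1.4.6 on GRCm38 are named in the submitters' processing notes; the libraries were stranded mRNA libraries, per the labels. Symbols, gene types and the longest transcript came from GENCODE M21 of the same build, which matched 49326 of 49585 gene IDs. TPM used the deposited gene length over all genes, and ranks are among 21734 protein-coding genes. Expressed means at least 1 TPM and silent under 0.1 TPM in both libraries. Ratios used TMM factors of 1.01 and 0.993 (edgeR 4.0.16) and need a fragment in both libraries, which left out 2 genes. Promoters came from RefSeq by symbol. Windows of 50 bases shared with other genes' transcripts marked uncertain genes.

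The text draws on all family members, the 25 genes of the highest TPM, the 3 highest members of each other list and its members without a fragment, the 10 largest ratios in each direction, and the 3 largest ratios per list; a few other members are named as examples, after their values were seen. Members and lists were chosen with earlier results of these data known. A 0 allows up to 3 fragments, which is 0.0660 and 0.0582 CPM for any gene, and is given in TPM for some genes. With 1 group of 2 libraries nothing was tested for difference. TPM and ratio calculations were tested on simulated data with counting error only, with ratios on library totals and not on TMM scaling. Alternatives were other thresholds, lengths, scalings (DESeq2 1.42.0 size factors among them) and each library alone. The other 2 libraries and the authors' table of comparisons were not used here.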

Additional observations from a re-analysis of the deposited data

How the results depend on the processing

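Expressed genes ranged from 9889 at 5 TPM to 15655 with any fragment, against 11505. The silent lineage genes fell from 131 to 87 when no fragment was allowed. The count of genes at least 1.5-fold apart, 212, was 49 at a mean of at least 10 TPM, 1456 with only a fragment required and 26 at 2-fold. Isoform shares moved with the length used. For Myh3 the share was 83.8% with the longest transcript and 83.6% without length correction, for Acta1 43.8% and for Myog 86.9% without it. With 200 bases taken off each length, with the longest transcript and without length correction, Tnnc1 held 58.3%, 65.6% and 66.2%, Tnnt3 67.9%, 56.5% and 37.4%, and Ckb 54.0%, 34.8% and 35.6%. Tnni1 held 51.5% with 200 bases taken off and 73.5% without correction, and Casq2 96.9% and 97.8%. The median replication gene was exceeded by 31.7% of genes on CPM, against 29.1%. On the ratio of TPM, 27 of 28 replication genes and all 28 mitosis genes were higher in replicate 2, with medians of 0.20 and 0.41, while 42.3% of all genes were. The mitosis median stayed from 0.41 to 0.46 in every setting run, the length bins having been chosen after seeing the data, and leaving out a library gives no ratio. With 2 libraries, depth limits the genes under 10 TPM most, and the spread of a group cannot be estimated well. No paired analysis was possible because there is 1 group and no comparison of groups was made.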
